A study of Rattus norvegicus with 24 samples.

Results

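Hepatectomy and normal control libraries of the PVN were compared for their miRNA content. The PVN is the hypothalamic nucleus that holds neurons making corticotrophin-releasing hormone, and the study took it as the start of the hypothalamic-pituitary-adrenal (HPA) axis. The members were chosen by the labels alone, as the 3 PVN libraries of the hepatectomy (HT) group and the 3 of the normal control (NC) group, 6 of the 24 miRNA libraries of the study. The other 18 came from rats that also had electroacupuncture (HT + EA), from rats with needles but no current (HT + SEA), and from the central nucleus of the amygdala (CEA) of all 4 groups. All rats were male Sprague-Dawley rats, bought at 7 weeks of age and kept for 1 week before the experiment, and none of the labels gives a mutation or transgene. HT rats were anesthetized with isoflurane, the abdomen was opened along the midline and part of the liver, about 20% of its left lobe, was taken out. For NC rats neither anesthesia nor a sham laparotomy is described, so effects of anesthesia, incision and liver resection cannot be told apart. Both groups were habituated to a restraint device for 30 min a day on 3 days, were restrained again when the other groups were needled, and were sampled 24 h after the last needling. According to the methods 1 rat gave too little material, and the brains of several animals of a batch were used, without a statement of which libraries share a rat, so the p-values below measure only the spread between these libraries.

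miRNAs are short RNAs cut from a hairpin precursor, of which either arm (5p or 3p) can be kept. They are loaded into Argonaute and pair with messenger RNAs mainly through the seed, the bases from position 2 to 8, and the pairing lowers the stability and translation of the target. Many are so strongly tied to 1 cell type or tissue that their level in a dissected nucleus reports on its makeup, as with miR-124 in neurons, miR-7 in neuroendocrine hypothalamic neurons, miR-451 in red cells and miR-223 in neutrophils and other myeloid cells.

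The mature sequences of the miRNAs on which the results turn are given from RefSeq (rat assembly GRCr8), 5′ to 3′, with the seed in capitals. The first is shown because it changed most, and the next 4 because each pair has 1 seed.

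miR-223-3p: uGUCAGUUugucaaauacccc
miR-34c-5p: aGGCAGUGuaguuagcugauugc
miR-34a-5p: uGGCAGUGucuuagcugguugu
miR-1b: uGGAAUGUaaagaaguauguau
miR-206-3p: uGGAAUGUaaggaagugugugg

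The next 4 are shown because miR-3548 and miR-3579 are read from the strand opposite to miR-200a-5p and miR-380-5p, and a reverse complement can be seen in each pair.

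miR-200a-5p: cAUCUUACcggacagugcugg
miR-3548: cAGCACUGuccgguaagaugcc
miR-380-5p: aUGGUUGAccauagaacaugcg
miR-3579: gCGCAUGUucuauggucaacca

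The last 7 are shown as called members of the miR-200, miR-10, miR-183 and miR-29 families described below, with miR-128-3p as the abundant brain miRNA that rose.

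miR-200c-3p: uAAUACUGccggguaaugaug
miR-10b-5p: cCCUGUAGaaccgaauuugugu
miR-10a-5p: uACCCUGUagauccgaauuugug
miR-182: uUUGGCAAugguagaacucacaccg
miR-183-5p: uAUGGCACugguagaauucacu
miR-29a-3p: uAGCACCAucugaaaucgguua
miR-128-3p: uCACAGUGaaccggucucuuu

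The table of RefSeq matched 460 of the 509 miRNAs tested. Among the miRNAs described below, miR-200a-3p, miR-200b-3p, miR-30b-5p, miR-30d-5p, miR-151-5p, miR-3586-3p, miR-486 and the predicted novel_854 are given by name.

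Reads were deposited as whole counts for 1098 miRNAs, 703 known and 395 predicted, of which 986 had a read in the 6 libraries. The libraries held 6584345 to 10668808 miRNA reads in the NC group and 8789556 to 11050725 in the HT group, and 3 reads, taken as the floor, equal 0.271 to 0.456 CPM (miRNA reads scaled to a common library size). The floor covers counting error only, and every CPM is a share of the miRNA reads and not an amount per cell. The defining markers of the labelled nucleus were present, and the neuroendocrine miR-7a-5p took the most reads, 14.0% on average, followed by the neural miR-9a-5p at 9.86%. The antisense miR-9b-3p (9.83%, nearly the same reads as miR-9a-5p), miR-148a-3p (7.93%) and miR-127-3p (4.48%) came next, and none of these 5 was called.

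After edgeR's filter on low counts, 509 miRNAs were tested with its quasi-likelihood test. A miRNA was called when its p before adjustment was under 0.05, which gave 64 calls (12.6%, where 25.5 would be called if none had changed). Of these, 30 were higher (5.89%) and 34 lower (6.68%) after HT. The split rested on single libraries, with 14 higher and 27 lower without NC library 3, 17 and 25 without NC library 1, 19 and 43 without NC library 2, 19 and 33 without HT library 3, 28 and 22 without HT library 2 and 37 and 31 without HT library 1. At a Benjamini-Hochberg adjusted p under 0.05 only miR-223-3p was called (0.196%). Most changes were small, with a median log2 fold change of 0.49 among the called miRNAs that were higher and -0.53 among those that were lower, beside 0.01 over all tested. Changes of over 2-fold were seen in 3 of the 30 and 8 of the 34. The 8 include miR-200a-5p and the antisense miR-3548, which are not separate measurements. The libraries of the 2 groups were fully separated for 54 of the 64, beside 106 of all 509 (20.8%). Of the 30 called higher 25 were separated, with 56 of all 509 separated in that direction (11.0%), and of the 34 called lower 29, with 50 of 509 (9.82%). With 3 libraries against 3 an exact permutation test of 1 miRNA can give no p below 0.1. The 30 together took 3.76 to 4.42% of the reads in the NC libraries and 4.86 to 5.74% in the HT libraries, and the 34 took 2.06 to 2.63% and 1.74 to 1.86%. Some names are not separate measurements, because the files give miRNAs on opposite strands of 1 locus nearly the same counts, and counted once per locus the 64 came to 56, of which 26 were higher and 30 lower.

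**Figure D1:**
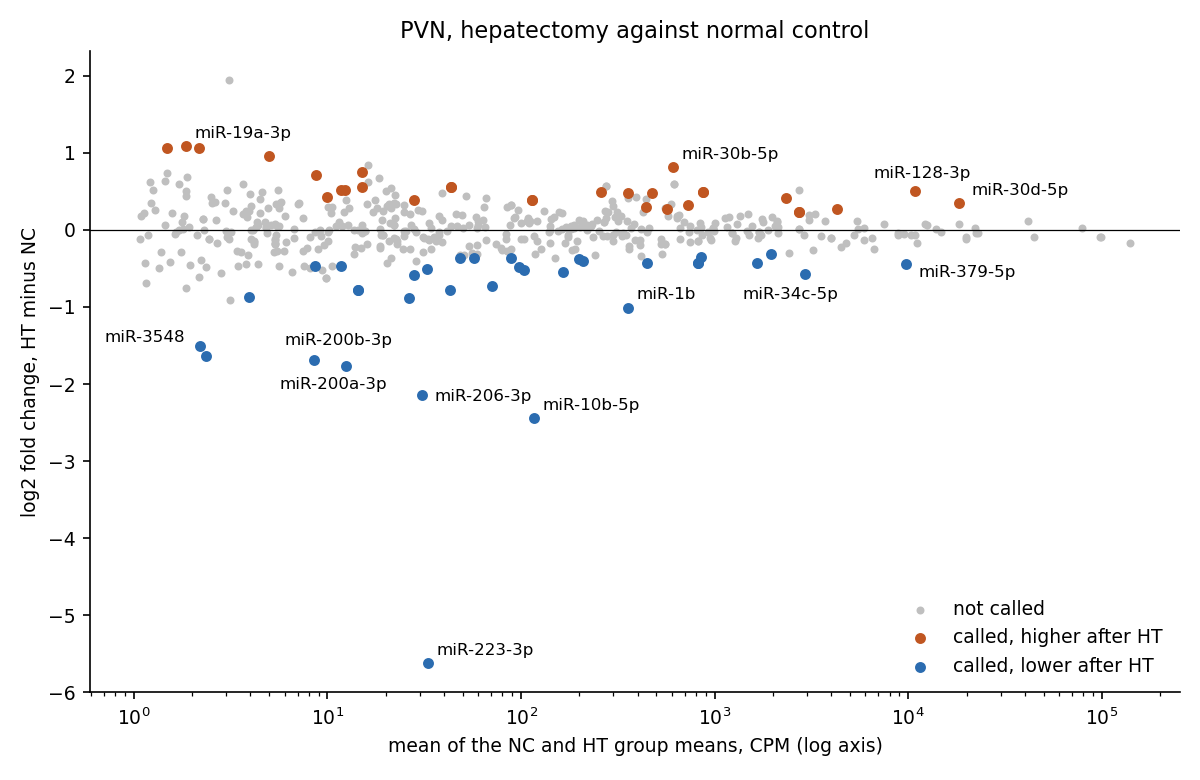
Each point is 1 of the 509 tested miRNAs, placed by the mean of its NC and HT group means in CPM (log axis) and by its log2 fold change, HT minus NC. Orange points are the 30 called higher and blue points the 34 called lower at an unadjusted p under 0.05. The 8 falls of over 2-fold reach down to -5.62 for miR-223-3p, while the abundant miRNAs at the right lie close to 0.

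The myeloid miR-223-3p fell furthest. It was at 22.6, 89.3 and 83.1 CPM in NC libraries 1 to 3 and at 1.05, 1.37 and 1.47 CPM in HT libraries 1 to 3, which corresponds to 147, 949 and 598 reads against 9, 13 and 17. The groups were far apart, although the NC libraries also differed among themselves. The log2 fold change was -5.62 (standard error 0.57), a 49.3-fold fall, with adjusted p = 0.00266 from edgeR's test with Benjamini-Hochberg adjustment, and 2.0e-59 to 0.263 over the alternatives. Without HT library 2 or HT library 3 the adjusted p was 0.0719 and 0.263 in the same edgeR test, with log2 fold changes of -5.66 and -5.73. The tissue was dissected whole, so fewer cells of a type and less RNA per cell cannot be told apart here or below.

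No other miRNA of the myeloid and lymphoid list was called, with 8 of its 12 members tested, 4 above and 4 below 0 and a median of 0.05. The leukocyte miRNA miR-142-5p was at 36.4 to 45.3 CPM in the NC libraries and 36.8 to 47.5 in the HT libraries, and its other arm miR-142-3p at 29.3 to 51.5 and 36.2 to 37.6. The inflammation-linked miR-146a-5p was at 168 to 192 and 167 to 171 CPM, and miR-155-5p at 4.31 to 5.55 and 4.43 to 7.94. For all 4 the NC and HT libraries overlapped. Summed over the list, the level was 4685 to 6744 CPM in the NC libraries and 5780.2 to 6573 in the HT libraries, with overlap. miR-223-3p took at most 89.3 CPM of this sum and each of the 4 above at most 192 CPM. The sum therefore mostly describes list members not named here. In the PVN of the treated rats miR-223-3p was at 8.85 to 12.1 CPM in the HT + EA libraries and 1.45 to 10.8 in the HT + SEA libraries, all below the lowest NC library.

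**Figure D2:**
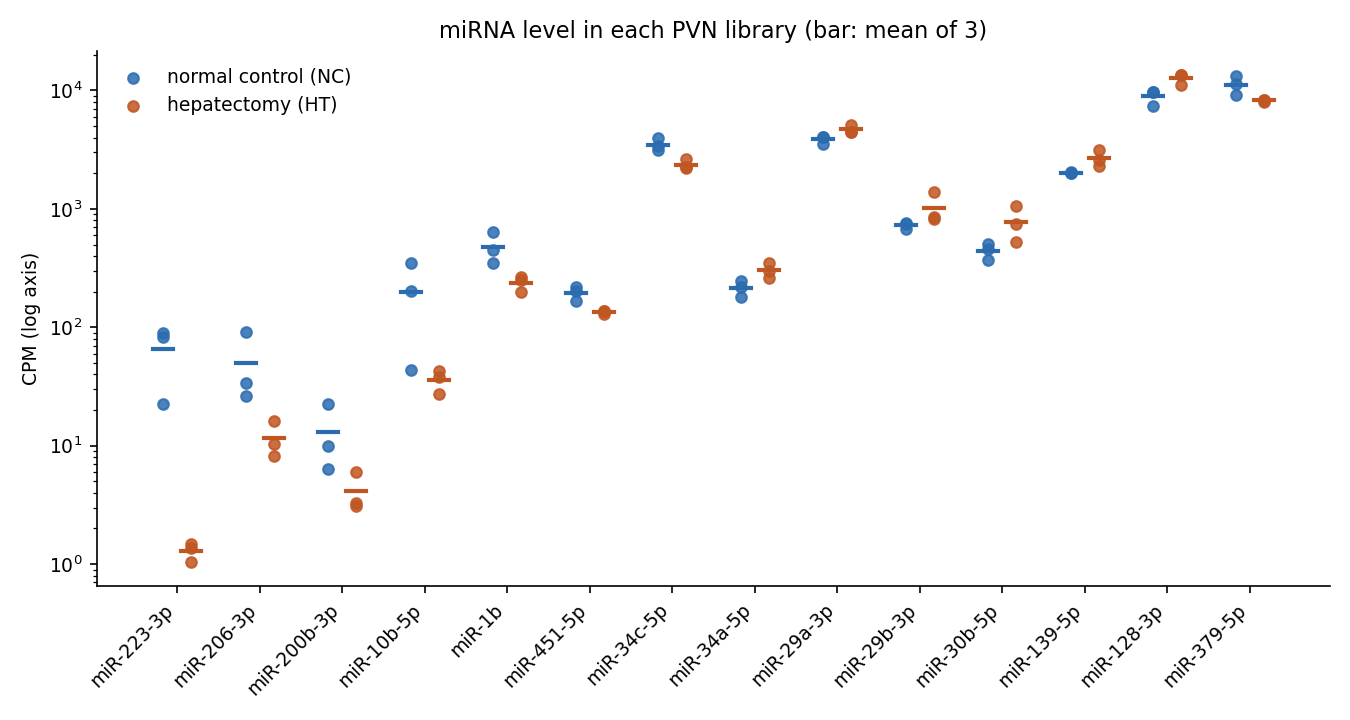
The level of 14 miRNAs in each of the 3 NC libraries (blue) and 3 HT libraries (orange) of the PVN, in CPM on a log axis, with a bar at the mean of each group. miR-223-3p shows the widest gap between the groups, and miR-10b-5p the widest spread within the NC group.

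The muscle and seed-sharing miRNAs miR-1b and miR-206-3p both fell. miR-206-3p, known from skeletal muscle, was at 26, 91.3 and 33.6 CPM in the NC libraries and 16.1, 10.3 and 8.13 in the HT libraries (log2 fold change -2.14, standard error 0.48, adjusted p = 0.216). miR-1b was at 639, 448 and 349 CPM and 265, 199.8 and 248 CPM (log2 fold change -1.01, standard error 0.22, adjusted p = 0.201). Neither overlapped between the groups, and both were called in all 6 fits that left out 1 library, though for miR-206-3p NC library 2 was far above the others and without it the change was -1.38. Of the striated-muscle list 3 members were tested, and only miR-206-3p was called (33.3%, beside 12.6% over all tested). The defining markers miR-1-3p and miR-133a-3p were not called. miR-1-3p was at 4.62, 4.52 and 5 CPM in the NC libraries and 8.29, 3.8 and 2.6 CPM in the HT libraries. miR-133a-3p was at 14, 13.7 and 8.06 and 7, 5.91 and 10.3 CPM. The list's sum leaves out miR-1b, and miR-206-3p took 91.3 of its 112 CPM in NC library 2. miR-1b and miR-1-3p share a seed and most of their bases, so how reads were split between them bears on both values. Over the 3 tested miRNAs with the seed GGAAUGU, the summed level was 669, 544 and 387 CPM in the NC libraries and 289.6, 214 and 259 CPM in the HT libraries, without overlap.

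The miR-200 family marks epithelium and holds cells in the epithelial state. All 4 members tested of the 8 listed were called lower after HT, beside 6.68% over all tested. Their median log2 fold change was -1.66. The rest had too few reads to be tested, and 2 of the 4 are arms of miR-200a. The filter can pass a miRNA on its NC reads alone, so this share is not independent support for a fall. miR-200b-3p was at 10, 22.4 and 6.4 CPM in the NC libraries and 5.95, 3.27 and 3.11 CPM in the HT libraries (log2 fold change -1.69, standard error 0.47, adjusted p = 0.263). miR-200a-5p was at 2.62, 5.36 and 2.64 and 1.28, 1.27 and 0.952 CPM (log2 fold change -1.64, standard error 0.39, adjusted p = 0.216). These were low levels, 17, 57 and 19 reads of miR-200a-5p against 11, 12 and 11, but neither miRNA overlapped between the groups and both were called in all 6 fits without 1 library, with miR-200b-3p at -1.01 without NC library 2. miR-200a-3p was at 6.32, 41.7 and 9.31 CPM and 7.59, 4.22 and 5.45 CPM, with overlap. Its change of -1.76 (adjusted p = 0.353) rested on NC library 2, without which it was -0.45 and it was not called. The fourth, miR-200c-3p, was at 6.78, 4.61 and 3.89 and 3.62, 1.58 and 3.11 CPM (log2 fold change -0.87, adjusted p = 0.353), and without NC library 1 the change was -0.62 and it was not called. Summed over the list, the level was 28, 80.9 and 24.9 CPM in the NC libraries, with library 2 far above the others, and 20, 11.8 and 14.3 CPM in the HT libraries.

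Of the miR-183 cluster, known from sensory organs, 2 of the 3 tested were called, both lower (66.7%, beside 12.6% over all tested). miR-203, known from skin, was called lower too. miR-182 was at 25.3, 49.6 and 27.4 CPM in the NC libraries and 22.2, 19.3 and 14.1 in the HT libraries (log2 fold change -0.89, adjusted p = 0.302). miR-183-5p was at 14, 26.1 and 14.2 and 12.3, 12.6 and 7.09 CPM (log2 fold change -0.78, adjusted p = 0.353). The third member, miR-96-5p, was not called at 5.08, 11.3 and 6.81 and 4.79, 6.75 and 4.58 CPM. For miR-182 and miR-183-5p the highest library was NC library 2, without which the changes were -0.51 and -0.42 and neither was called. The antisense partners miR-203b-5p and miR-203a-3p changed by -0.59 (adjusted p = 0.291) and -0.51 (adjusted p = 0.353), from 41.9, 27.6 and 32.1 to 22.6, 21.4 and 23.1 CPM for the first. Without NC library 1 the change of miR-203a-3p was -0.33 and it was not called, nor was it without HT library 2. NC library 1 was the highest for miR-203b-5p, so the libraries that stood high were not the same for each of these miRNAs.

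Of the Hox-cluster miRNAs, which in the adult mark spinal and hindbrain levels of the body axis, 2 of the 7 listed were tested and both were called lower, beside 6.68% over all tested. miR-10b-5p was at 348, 43.9 and 201 CPM in the NC libraries and 37.8, 27.4 and 43.1 CPM in the HT libraries (log2 fold change -2.45, standard error 0.61, adjusted p = 0.23). NC library 2, the highest for the miR-200 family and miR-206-3p, was here nearly level with the HT libraries, and the group means were 198 ± 152 and 36.1 ± 7.96 CPM (SD, n = 3). Without HT library 3 the change was -2.61 but with a wider error, and it was not called. miR-10a-5p was at 118, 46.9 and 101 and 63.3, 47.6 and 49 CPM, with overlap (log2 fold change -0.73, adjusted p = 0.353), and without NC library 1 the change was -0.47 and it was not called. Summed over the list, the level was 467, 91.4 and 302 CPM in the NC libraries and 101, 75.1 and 92.4 CPM in the HT libraries, with overlap through NC library 2. The miR-10 miRNAs are near copies, whose sequences above share most bases, so reads may be split between them.

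In the miR-34 family, which is rich in ciliated cells such as the ependyma that lines the third ventricle beside the PVN, both arms of miR-34c fell. miR-34c-5p fell from 3950.1, 3130.1 and 3405 CPM in the NC libraries to 2612, 2203 and 2260.1 CPM in the HT libraries (log2 fold change -0.57, standard error 0.12, adjusted p = 0.201). The groups were separate, and the call was made in all 6 fits without 1 library and in all 13 other alternatives. The other arm, miR-34c-3p, fell as well, from 68.4, 36.8 and 58.5 to 33.6, 32.2 and 29.4 CPM (log2 fold change -0.78, adjusted p = 0.263). Of the ciliated-cell list 5 of 6 members were tested and 2 called (40%, beside 12.6% over all tested), both lower, with a median log2 fold change of -0.43. The uncalled members were miR-34b-5p at -0.43 (adjusted p = 0.372), miR-34b-3p at -0.27 (adjusted p = 0.58) and miR-449a-5p at 0.60 (adjusted p = 0.563), the last with only 10, 11 and 11 reads in the NC libraries.

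miR-34a-5p, which has the seed of miR-34c-5p, is made from a locus of its own that p53 induces, and is known to target the receptor Crhr1, went the other way. It was at 180.4, 220.2 and 248 CPM in the NC libraries and 259, 298 and 349.8 CPM in the HT libraries, without overlap (log2 fold change 0.48, standard error 0.17, adjusted p = 0.353). Without NC library 1 the change was 0.37 and it was not called. Because miR-34c-5p had more reads, the summed level of the 4 tested miRNAs with the seed GGCAGUG was lower after HT, at 2894, 2519.6 and 2627 CPM against 4155, 3371 and 3683 CPM in the NC libraries.

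Other cell types were read from their markers. The red-cell list gave 2 calls among 4 tested (50.0%, beside 12.6% over all tested), both lower, and miR-451-5p was at 166, 217 and 203 CPM in the NC libraries and 137, 129 and 137 CPM in the HT libraries (log2 fold change -0.54, standard error 0.15, adjusted p = 0.263). miR-486 was at 88.4, 94.3 and 116 and 76.1, 81.8 and 74 CPM (log2 fold change -0.36, adjusted p = 0.372), and without NC library 3 the change was -0.24 and it was not called. The third defining marker, miR-144-3p, was level at 12.6, 13.3 and 15.4 and 12.5, 16 and 12.7 CPM. The red-cell sum ran from 274 to 344 CPM in the NC libraries and from 233 to 235 CPM in the HT libraries, without overlap. Whether less blood in the HT samples had a part in the fall of miR-223-3p was not tested, and the red-cell sum fell far less than miR-223-3p did.

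The vessel and glial lists gave no calls. The endothelial miR-126a-3p was at 18735 to 22119 CPM in the NC libraries and 17699 to 20663 CPM in the HT libraries, and the mural-cell miR-143-3p at 10458 to 11798 and 10498 to 10749.8. None of the 6 vessel and 5 oligodendrocyte miRNAs was called, with medians of -0.07 and 0.10, and the oligodendrocyte miR-219a-2-3p was at 1618 to 2354 and 2038 to 2245 CPM and miR-338-5p at 180.1 to 300.2 and 281 to 319.5. NC library 1 was the lowest library for both. In the choroid plexus list, miR-204-3p rose from 10.9, 9.6 and 9.87 to 15.1, 15.9 and 12.6 CPM (log2 fold change 0.52, adjusted p = 0.353), and without HT library 2 the change was 0.45 and it was not called. Its main arm miR-204-5p was not called at 552, 618 and 636 and 663, 686 and 692 CPM, and miR-211-5p was at or near the floor at 0.282 to 0.417 and 0.317 to 0.606 CPM.

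Of the liver miRNAs none was called among the 3 tested. miR-122-5p, the liver's dominant miRNA, was at 1.69, 1.13 and 0.973 CPM in the NC libraries and 12.7, 1.06 and 1.12 CPM in the HT libraries. HT library 1 alone stood apart, with 109, 10 and 13 reads in the order of the HT libraries, and without it the log2 fold change of 1.94 became -0.19. The same library held the most reads of miR-1-3p, as given above.

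**Figure D3:**
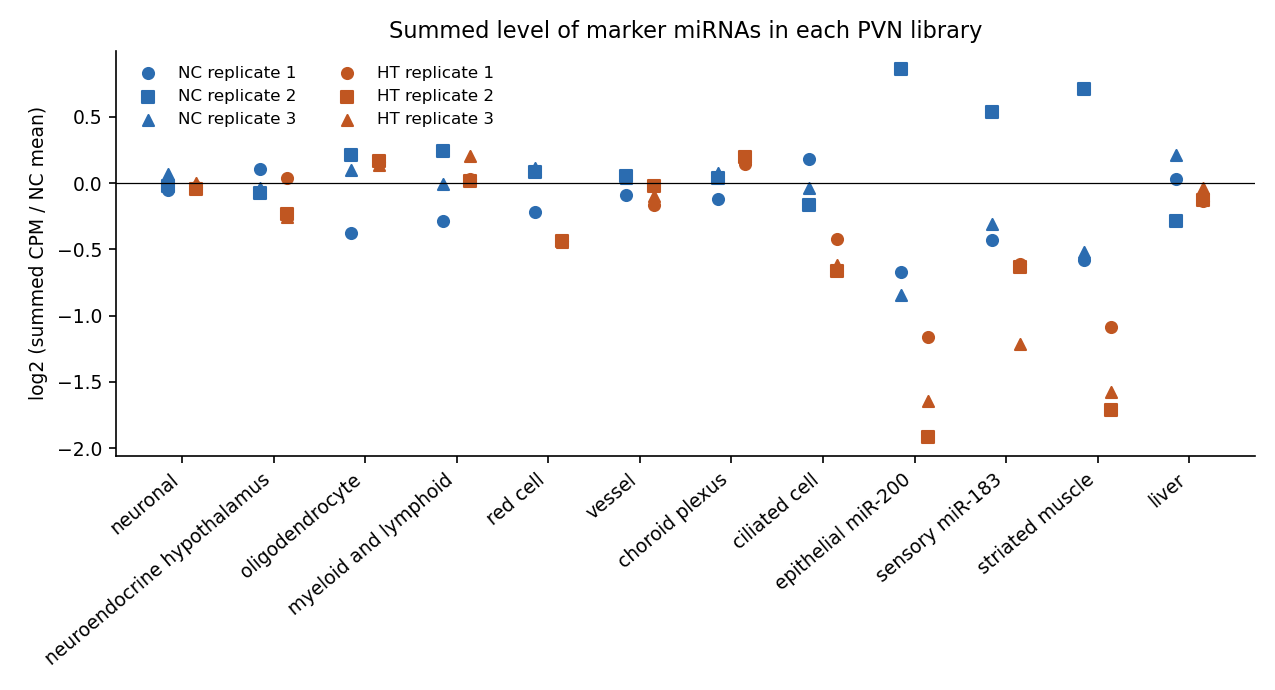
The summed CPM of each marker list in each PVN library, as the log2 of its ratio to the NC mean, with NC libraries in blue, HT libraries in orange and a marker shape for each replicate number. The red-cell, ciliated, epithelial, sensory and muscle sums lie lower in every HT library than in any NC library, and the choroid plexus sum lies higher. NC replicate 2 is the highest library for the epithelial, sensory and muscle lists. Of the muscle list only miR-206-3p was called, and miR-1b is not in it.

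The neuronal miRNAs gave 2 calls, both higher, among 15 tested (13.3%), a share near the 12.6% over all tested, with a median log2 fold change of 0.08. miR-128-3p, abundant in the forebrain and a regulator of neuronal excitability, rose from 7328, 9716 and 9784 CPM in the NC libraries to 13440.1, 13486 and 11214 CPM in the HT libraries (log2 fold change 0.51, standard error 0.13, adjusted p = 0.23). The groups were separate, and it was called in all 6 fits without 1 library. miR-138-1-3p, the minor arm of a synaptic miRNA, was at 14.2, 9.41 and 13.3 and 14.8, 16.9 and 22 CPM (log2 fold change 0.55, adjusted p = 0.353), and without HT library 3 the change was 0.37 and it was not called. The pan-neuronal miR-124-3p was at 987 to 1462 and 1136 to 1499.8 CPM and miR-9a-5p at 98724 to 107368 and 93198 to 98420.4 CPM, neither called. The summed neuronal level was 118350.0 to 128632 CPM in the NC libraries and 118889 to 122911 CPM in the HT libraries, with overlap.

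Among the 5 neuroendocrine miRNAs, miR-375-3p, known from pancreatic islets and the pituitary, was called and was lower (20%, beside 12.6% over all tested). It was at 142, 103 and 97 CPM in the NC libraries and 96.3, 74.8 and 74.2 CPM in the HT libraries (log2 fold change -0.48, adjusted p = 0.353), and without NC library 1 the change was -0.29 and it was not called. miR-7a-5p, the most abundant miRNA of the nucleus, was at 159018, 140187 and 144947 CPM and 151472, 124765 and 119874 CPM (log2 fold change -0.17, adjusted p = 0.563). HT libraries 2 and 3 lay below all NC libraries, but HT library 1 did not. miR-7b was at 11170.2 to 13906 and 11442 to 14118 CPM. The calcitonin receptor intron miRNA miR-653-5p was lower, at 596, 522 and 427 and 447, 389 and 314 CPM, with overlap (log2 fold change -0.43, adjusted p = 0.353), as 1 of 4 tested from that intron (25.0%), and without NC library 1 the change was -0.31 and it was not called.

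The miR-29 family, which targets collagens and other matrix genes and is rich in astrocytes and mature neurons, had 2 of 6 tested members called, both higher (33.3%, beside 12.6% over all tested), and all 6 above 0 with a median log2 fold change of 0.36. miR-29a-3p rose from 3528, 4016 and 4076 CPM to 4452, 4440.4 and 5157 CPM (log2 fold change 0.27, standard error 0.11, adjusted p = 0.353). miR-29b-3p was at 678, 741 and 762 and 848, 827 and 1391 CPM (log2 fold change 0.49, adjusted p = 0.353). Both rested in part on HT library 3, the highest, without which the changes were 0.19 and 0.20 and neither was called. The third miRNA with the seed AGCACCA, miR-29c-3p, was not called at 78.1, 75.7 and 82.9 and 88.8, 81.5 and 126 CPM, and the 3 summed to 4283, 4833 and 4920.2 CPM in the NC libraries and 5389, 5348 and 6674 CPM in the HT libraries, without overlap.

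In the miR-30 family 2 of 10 tested were called (20%, beside 12.6% over all tested), both higher, with a median of 0.12. miR-30b-5p was at 454, 506 and 369 CPM in the NC libraries and 526, 744 and 1067 CPM in the HT libraries (log2 fold change 0.81, standard error 0.24, adjusted p = 0.263), called in all 6 fits without 1 library, with 0.51 without HT library 3. miR-30d-5p was at 16598, 18616 and 13131 and 18592, 23692 and 19269 CPM, with overlap (log2 fold change 0.35, adjusted p = 0.353), and without HT library 2 or NC library 3 the change was 0.23 or 0.22 and it was not called. The other main arms were flatter, with miR-30a-5p at 0.08 (adjusted p = 0.841), miR-30c-5p at 0.03 (adjusted p = 0.942) and miR-30e-5p at 0.21 (adjusted p = 0.421).

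miR-139-5p, made from an intron of the phosphodiesterase gene Pde2a, rose from 2028, 1997 and 2011 CPM to 2297, 2600.0 and 3148 CPM (log2 fold change 0.41, standard error 0.12, adjusted p = 0.263). The NC libraries were nearly level, no HT library overlapped them, and it was called in all 6 fits without 1 library, with 0.27 without HT library 3, the highest. miR-22-3p was at 624, 689.9 and 629.5 and 748, 848 and 835 CPM (log2 fold change 0.32, adjusted p = 0.353), and without HT library 2 the change was 0.29 and it was not called. miR-547-3p was at 6.32, 8.37 and 4.87 and 9.81, 12.6 and 10.1 CPM (log2 fold change 0.72, adjusted p = 0.353), and it was not called without HT library 2 or NC library 3, at 0.60 and 0.54. The rest of the called miRNAs that were higher included the minor arms let-7i-3p (0.43) and let-7a-2-3p (1.06), the only 2 of 20 let-7 miRNAs called (10%, beside 12.6% over all tested), each called in 1 of the 6 fits without 1 library. miR-19a-3p (1.08) was the only 1 of 16 tested from miR-17-92 and its paralogs (6.25%), and without HT library 1 the change was 0.71 and it was not called. Both let-7a-2-3p and miR-19a-3p were below 4 CPM in every library.

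**Figure D4:**
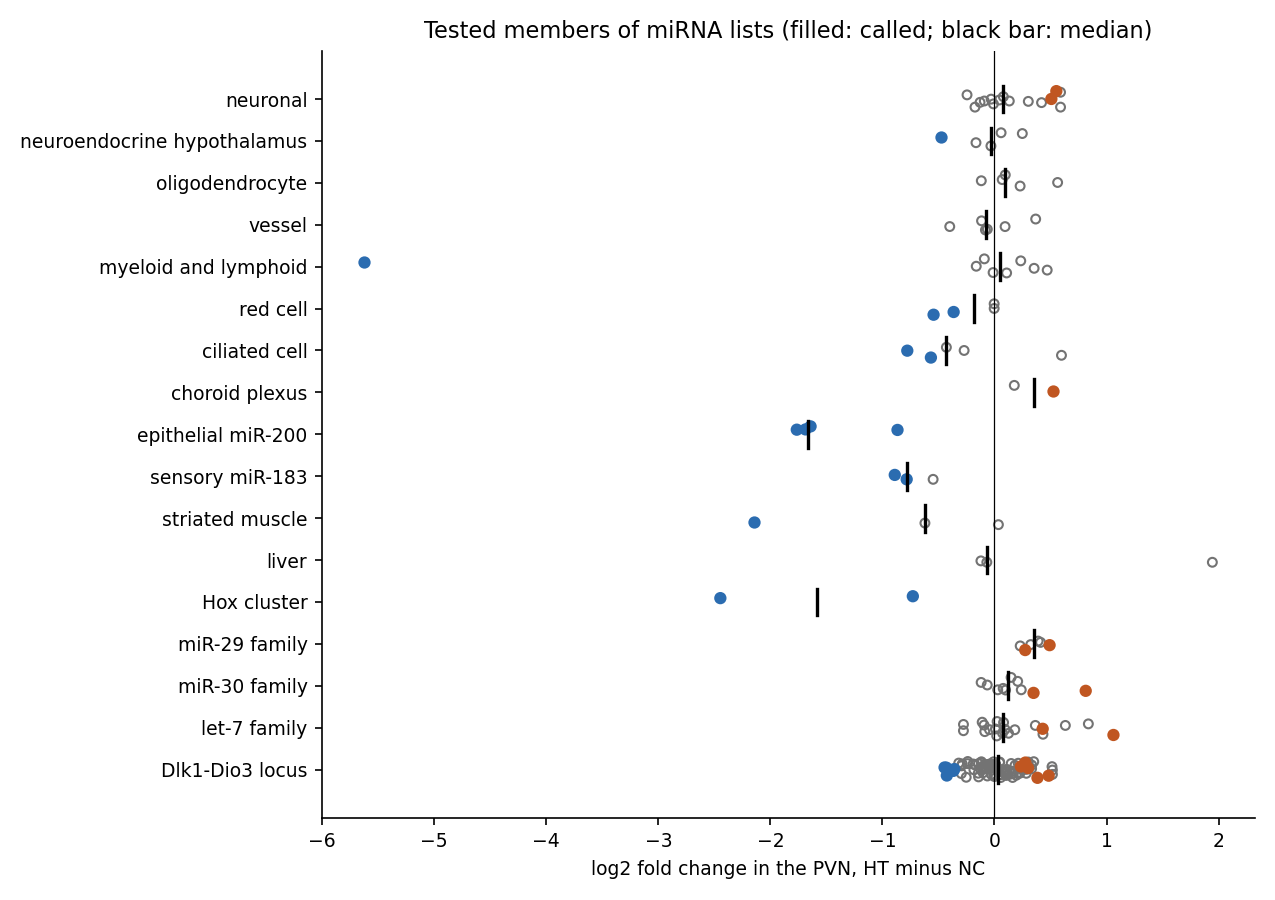
The log2 fold change, HT minus NC, of every tested member of 17 miRNA lists, with open circles for members not called, filled circles for called members (orange higher, blue lower) and a black bar at the list's median. The epithelial list has a median of -1.66 and the ciliated list of -0.43, and the miR-29 list is above 0 in every member.

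The imprinted Dlk1-Dio3 locus, which holds a large cluster of brain miRNAs, gave 10 calls among 85 tested (11.8%), a share near the 12.6% over all tested, with 5 higher and 5 lower and a median of 0.03. miR-379-5p, its most abundant called member, fell from 11350.5, 9102 and 13214 CPM to 8383, 7989 and 8349 CPM (log2 fold change -0.45, standard error 0.13, adjusted p = 0.263), without overlap and in all 6 fits without 1 library. miR-134-5p, which limits dendritic spine growth, was at 1781, 1509 and 2384 and 1266, 1407 and 1551 CPM, with overlap (log2 fold change -0.43, adjusted p = 0.353), and without NC library 3 the change was -0.23 and it was not called. miR-382-5p (-0.36) and miR-667-5p (-0.37) were lower too. Higher were miR-329-3p (0.48), miR-410-3p (0.30), miR-434-3p (0.24) and miR-539-5p (0.38), of which miR-329-3p was at 288, 282 and 325 CPM in the NC libraries and 341, 380.4 and 529 in the HT libraries. Without HT library 3 miR-329-3p was at 0.27 and miR-539-5p at 0.20, neither called. miR-382-5p, miR-667-5p, miR-410-3p and miR-434-3p each lost the call in 3 or 4 of the 6 fits without 1 library.

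The 2 arms of the miR-380 hairpin went opposite ways. miR-380-5p fell from 992, 778 and 1047 CPM to 667, 688 and 736 CPM (log2 fold change -0.43, adjusted p = 0.291), and miR-380-3p rose from 504, 526 and 506 CPM to 571, 631 and 658 CPM (log2 fold change 0.28, adjusted p = 0.353). Both arms were also called for miR-34c and miR-200a, lower in each case. The call of miR-380-3p was made in 1 of the 6 fits without 1 library, that of miR-380-5p in all 6. miR-3579 is called with miR-380-5p because its counts differ from it by at most 3 reads in any library, and the 2 are 1 measurement.

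Lists chosen for function rested on few miRNAs each. The list of miRNAs known to regulate the glucocorticoid receptor or Crhr1 took both arms of each hairpin, and 12 were tested. Of these, 1 was higher (miR-34a-5p) and 2 were lower (miR-34c-5p and miR-34c-3p), together 25.0% beside 12.6% over all tested. The list's median was 0.03. miR-34c-3p does not have the seed of miR-34c-5p and was listed as its other arm. The p53-induced list had 1 tested member, miR-34a-5p, which was called as given above. Among 6 activity-regulated miRNAs only miR-134-5p was called (16.7%), while the neuronal-activity marker miR-132-3p was at 819 to 1140.1 and 773 to 1106 CPM and miR-212-3p at 115 to 161 and 117 to 174 CPM. None was called among 8 miR-181 miRNAs, 4 of the locus of miR-221 and its neighbour, 4 of miR-135, 2 of miR-218, 6 of the Htr2c introns, 3 of the Gnas locus, 2 of the Gabre intron and 1 hypoxia miRNA, and none of the 11 rodent X-cluster miRNAs with a read had enough to be tested. The study linked miR-3548, miR-3099, miR-667-5p and miR-1224 to the genes NSMF and MGLL after HT, and miR-92b-3p and miR-328a-3p after electroacupuncture. Of these 6, all tested, 3 were lower (50.0%, beside 6.68% over all tested) and none higher. Those 3 were all among the miRNAs linked to HT, of which only miR-1224 was not called. All 6 were chosen on these same samples and are no independent evidence. The 3 were miR-3099 at 138, 104 and 123 and 85.2, 86.1 and 83 CPM (log2 fold change -0.52, adjusted p = 0.263), miR-3548 at 2.31, 4.7 and 2.64 and 1.28, 1.27 and 0.952 CPM (-1.50, adjusted p = 0.23), which is 1 measurement with miR-200a-5p, and miR-667-5p.

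miR-3548 and miR-200a-5p cannot be read apart in these counts. Their mature sequences overlap by 20 bases on opposite strands, their counts differed by at most 1.14 times in any library, and their log2 counts had a correlation of r = 0.997 over the 6 libraries, which share depth. Among the tested miRNAs 40 pairs overlapped on opposite strands, 31 of them with counts within 1.3 times of each other, and 7 pairs had both members called. The 7 include miR-29b-3p with miR-3587, miR-183-5p with miR-3553, miR-434-3p with miR-3543 and miR-539-5p with miR-3576. How the counting treated strand is not given for the miRNA reads in the sources used here.

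The other called miRNAs were in no list. Lower were miR-140-3p (-0.32), miR-152-3p (-0.41), miR-99b-3p (-0.38), miR-873-3p (-0.37), miR-33-5p (-0.47) and miR-501-3p (-0.47). Higher were miR-384-3p (0.47), miR-551b-3p (0.39), miR-151-5p with its twin miR-3586-3p (0.56), miR-365-3p (0.75), miR-31a-3p (0.95), miR-3084a-3p (1.06) and novel_854 (0.52), all as log2 fold changes. Without HT library 3 the changes were 0.31 for miR-31a-3p, 0.36 for miR-365-3p, 0.25 for miR-151-5p and its twin and 0.22 for miR-384-3p, none of them called. miR-3084a-3p, among the 3 called miRNAs that rose by over 2-fold, was called in 2 of the 6 fits without 1 library, and none of the others in this group was called in all 6. novel_854 was the only 1 of 10 tested predicted miRNAs that was called, beside 12.6% called over all tested. It was at 8.32, 9.88 and 10.8 and 14.5, 14.6 and 12.7 CPM.

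HT library 3 stood furthest from its group, with a root mean square log2 deviation of 0.520 against 0.426 to 0.459 in the other 5 libraries. It was the highest library for 17 of the 30 called miRNAs that were higher. Without it 13 of the 30 and 22 of the 34 were still called, and 12 of the 64 changes moved by over 1.5 times, against 1 to 6 without any other library. Of all 64, 17 were called in each of the 6 fits without 1 library. Among them were miR-223-3p, miR-34c-5p, miR-34c-3p, miR-1b, miR-206-3p, miR-200a-5p, miR-200b-3p, miR-451-5p, miR-379-5p, miR-128-3p, miR-30b-5p and miR-139-5p. The 17 include miR-200a-5p with miR-3548 and miR-380-5p with miR-3579, each pair being 1 measurement. Base composition moved with the calls that were higher, whose median GC content was 43.5%, beside 47.8% over all tested. Those that were lower were near that, at 47.6%. The log2 fold change had a Spearman rho of -0.181 with GC content. Of the single libraries NC library 1 followed GC content most, at rho 0.258, against -0.139 to 0.0568 in the others. The part of GC content in the single calls was measured with a GC-content offset. Under it 23 of 25 called higher and 27 of 31 called lower that have a sequence were called again.

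The CEA of the 2 groups gave a second set of HT and NC libraries, 3 of each. In the CEA 6 of 527 miRNAs were called (1.14%, none at an adjusted p), and all 6 were called in the PVN with the same sign, which is 100% of the CEA calls and 9.38% of the PVN calls. Neither count was stable. Without CEA NC library 1 or CEA HT library 2, 21 miRNAs were called in the CEA, of which 9 were shared in each case, without CEA HT library 3, 3 of 16, without CEA NC library 3, 3 of 7, and with at least 1 count as the filter, 7 of 30. The 6 were miR-223-3p, miR-206-3p, miR-1b and miR-200b-3p, which were lower, and miR-547-3p and miR-30d-5p, which were higher, an overlap seen after the values were known. miR-223-3p in the CEA was at 1.28, 9.94 and 10.7 CPM in the NC libraries and 1.07, 0.868 and 0.843 CPM in the HT libraries (log2 fold change -2.98, standard error 0.69, adjusted p = 0.981). NC library 1 was the lowest NC library in both nuclei, and close to the HT libraries in the CEA. miR-206-3p in the CEA was at 16.2, 29.8 and 27.4 and 16.2, 15.9 and 16.4 CPM (log2 fold change -0.60, adjusted p = 0.981), with NC library 2 again the highest. miR-200b-3p in the CEA was at 1.18, 4.87 and 1.94 and 0.877, 1.16 and 0.773 CPM (-1.54, adjusted p = 0.981), and NC library 2 was the highest here too. miR-1b there was at 289, 384 and 324 and 255, 268 and 244 CPM (-0.38, adjusted p = 0.981).

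The likeness of NC libraries with 1 number was not limited to these miRNAs. Over the 499 miRNAs tested in both nuclei, the deviation of a PVN NC library from its group mean correlated with that of the CEA NC library of the same number at r = 0.224, 0.205 and 0.148 for numbers 1 to 3, and with the other numbers at -0.173 to -0.00971. For the HT libraries the same-number values were -0.0418, 0.0549 and 0.0307. miRNAs are not independent replicates, and the sources do not say what a number shares, so the CEA libraries cannot be taken as independent of the PVN libraries.

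Of the 62 miRNAs called in the PVN and tested in the CEA, 40 had the same sign in the CEA (64.5%), beside 230 of the 437 not called in the PVN (52.6%). By direction, 23 of 32 that were lower and 17 of 30 that were higher kept their sign. miR-128-3p in the CEA was at 22007, 27606 and 32389 and 32763, 21471 and 27694 CPM (log2 fold change -0.00), and miR-379-5p at 6497, 4245 and 4803 and 7255, 5050.0 and 4879 CPM (0.14). miR-34c-5p in the CEA had a change close to that in the PVN (-0.52, standard error 0.68), but its libraries there ranged widely, from 433, 1027 and 462 CPM in the NC group to 221, 902 and 215 CPM in the HT group. The difference between the nuclei was tested as an interaction over 12 libraries, and no miRNA was called after adjustment by edgeR or by DESeq2, while edgeR gave 11 of 549 (2.0%) a p under 0.05 before adjustment. The 11 became 5 without PVN NC library 1, 20 without PVN NC library 2, 18 without PVN HT library 1 or CEA HT library 2, 37 without CEA NC library 1, 33 without CEA HT library 3, 26 with the replicate block and 36 of 1064 with at least 1 count, with none called after adjustment in any of these edgeR fits. The 11 include miR-206-3p (-1.57), miR-223-3p (-2.67), miR-1b (-0.66) and miR-379-5p (-0.62), given as the PVN change minus the CEA change, and for each of them edgeR gave adjusted p = 0.943. That fit took the 12 libraries as independent. With the PVN and CEA libraries of 1 group and number as a pair, a fit added after the correlations above were seen, edgeR called 1 miRNA after adjustment, miR-223-3p (-2.84, adjusted p = 0.0121), and gave 27 of 549 a p under 0.05 before it. As the HT libraries of 1 number did not deviate together, whether numbers mark pairs is not settled.

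**Figure D5:**
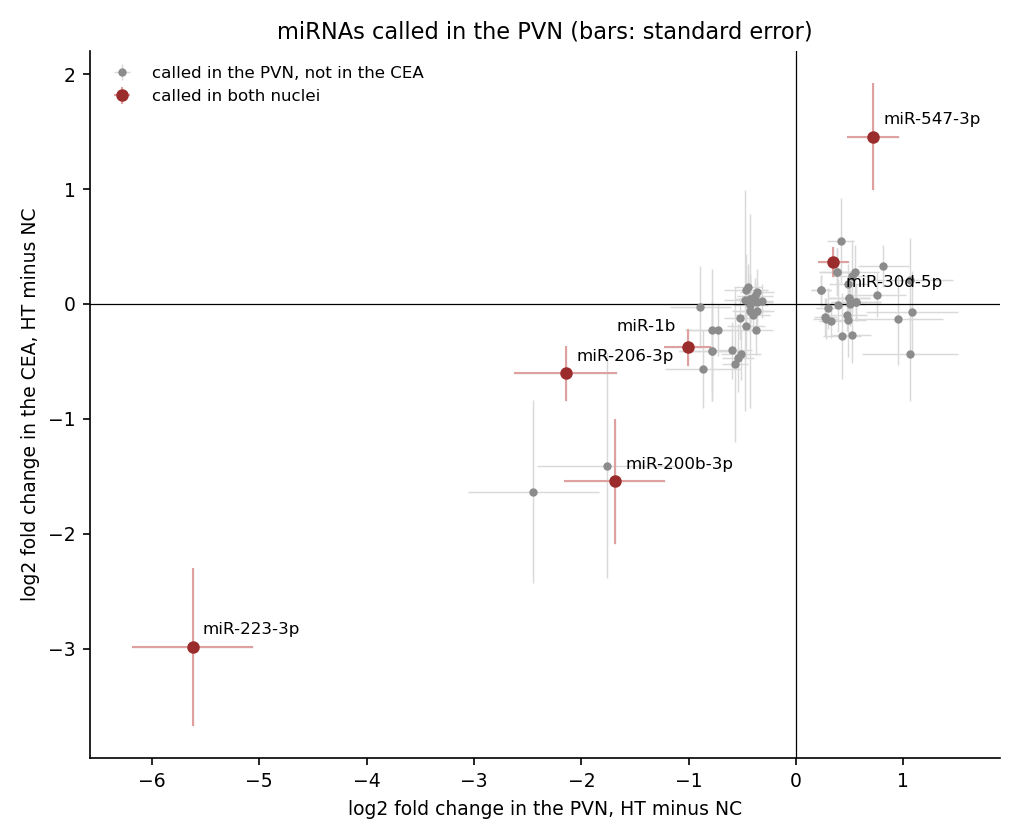
The log2 fold change, HT minus NC, in the PVN (x axis) and in the CEA (y axis) of the 62 miRNAs called in the PVN and tested in both nuclei, with bars for the standard errors. The 6 called in both nuclei are in red, and miR-223-3p lies furthest from 0 on both axes.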

How the data were processed

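Small RNA of the PVN was sequenced from NEBNext libraries. What the authors deposited are raw counts of reads on each miRNA, without normalization. Per the labels and the paper's methods, adapter-bearing, uncertain and low-quality reads were removed, and HISAT2 and featureCounts are named for the sequencing as a whole, with mRatBN7.2 in the methods and human builds in the submitters' processing notes. The treatment of strand and of reads matching several miRNAs is not given in the sources used here, which can give antisense and near-identical miRNAs shared counts. A further 24 columns of per-library normalized values were not used.

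Counts of the 6 PVN libraries were fitted in R 4.3.3 by edgeR 4.0.16, which uses limma 3.58.1, after filterByExpr (minimum count 10), TMM scaling, glmQLFit with the robust estimate and glmQLFTest. A minimum of 1 count was used in an earlier analysis of these data, which the paper does not describe. That minimum gave 477.6 prior degrees of freedom against 5.3 here, which leaves each miRNA almost no spread of its own. The HT effect in the PVN was compared with that in the CEA as an interaction over 12 libraries. CPM use the TMM-scaled totals. The fit was also run on simulated data with known changes, which checks the code and not the results. Sequences came from RefSeq. Tables and figures used Python 3.11.15, pandas 2.3.3, numpy 2.4.6 and matplotlib 3.10.9.

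Named are the 15 miRNAs of smallest p in each direction, every called list member, the defining markers and the 5 most abundant, and the other called miRNAs were added after their values were seen. The comparison and the lists were chosen with earlier results of these data known. Alternatives were DESeq2 1.42.0, other scalings and filters, no robust estimate, known miRNAs only, identical counts once, all 4 PVN groups, a replicate block and each library left out. The GC-content offset, the pairing of PVN with CEA libraries and the alternatives of the CEA fit were added after the data were seen.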

Additional observations from a re-analysis of the deposited data

How the results depend on the processing

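The call count of 64 was within 1.5 times under most alternatives. It was 99 with at least 1 count (41 higher and 58 lower), 107 with that filter and no robust estimate, 106 with all 4 PVN groups in the fit (57 higher and 49 lower), and 41 to 68 over the fits without 1 library, with 41 without NC library 3 and 42 without NC library 1. With library totals in place of TMM the split was 36 higher and 28 lower, and with at least 10 counts it was 29 and 47. The count at an adjusted p, 1 with edgeR, was 5 with DESeq2, 8 with at least 1 count, 32 with that filter and no robust estimate, 3 with all 4 groups, and 0 to 2 without 1 library (0 without HT library 2 or 3, 2 without NC library 2). The interaction gave 2 in place of 0 with at least 1 count and no robust estimate, and 1 with the replicate block within NC and within HT, which pairs the nuclei. The calls shared with the CEA, 6, ranged from 3 to 9 without 1 CEA library.

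Replicate numbers did not pair the NC and HT libraries, whose same-numbered deviations had correlations of -0.042, -0.056 and -0.074. With the replicate block 54 miRNAs were called, 26 of them higher, and 45 of the 64 were among them.

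Some uncalled markers changed sign. miR-122-5p, at 1.94 in the full comparison, ranged from -0.19 (without HT library 1) to 2.43 over the fits without 1 library. The others were near 0, and over the same fits miR-219a-2-3p ranged from -0.043 to 0.21, miR-7b from -0.027 to 0.16, miR-124-3p from -0.074 to 0.20, miR-148a-3p from -0.057 to 0.052, miR-1-3p from -0.57 to 0.34, miR-142-5p from -0.12 to 0.065 and miR-144-3p from -0.13 to 0.082. miR-1-3p was also at -0.094 with the replicate block and -0.000686 with the GC-content offset. With library totals miR-142-5p was at 0.029 and miR-144-3p at 0.039. miR-144-3p was further at 0.0011 with the upper quartile, 0.0046 with at least 1 count with or without the robust estimate, and 0.000214 with all 4 groups. With library totals the HT sums were 2937 CPM for oligodendrocyte and 238 CPM for red-cell miRNAs. The cause of these shifts was not tested. At these depths a miRNA near 0.3 CPM rests on a few reads, so small changes at that level cannot be read. Some miRNAs of only a few CPM, such as miR-200a-5p, were called.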
